A study of Mus musculus with 12 samples.

Results

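Genes that lie on the strand opposite to another gene are often named after that gene with the ending os. The genes described here are the 293 genes of the deposited table whose symbol ends in os, with or without a number of 1 or 2 digits, and whose symbol without that ending is itself a gene of the table. They were chosen by name, and they belong to 251 different partners, 31 of which have several opposite-strand genes. Values of 52015 genes of the table were used in all. In the GENCODE M21 annotation of GRCm38, 288 of them matched 1 gene each together with the partner, and all 288 lay on the strand opposite to it. Tmem147os has several rows with different values and was left out of the comparisons, so that 292 genes have a value to set beside that of the partner.

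In general, opposite-strand transcripts are mostly long noncoding RNAs. Some begin at the promoter of the partner and run away from it, some are transcribed across the partner in the antisense direction, and some are merely neighbours. Transcription from a shared promoter can raise or lower both RNAs together, and antisense transcription is known at some loci to repress or to activate the gene on the other strand. A minority of genes with this kind of name encode proteins of their own and are named only for their position. Homeobox and other developmental transcription factor genes, many of them active in the kidney and its collecting duct, are well known for such transcripts.

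RNA was sequenced from mpkCCD cells, a mouse line derived from the cortical collecting duct, in 12 libraries. The scramble groups Scr_300 and Scr_600 carried a non-targeting guide RNA and had 2 libraries each, while 4 libraries stand behind Nfat5-KO_300 and 4 behind Nfat5-KO_600, made from N1 and N3, clones in which Nfat5 was deleted with CRISPR/Cas9. NFAT5 is the transcription factor that drives the response of renal cells to hypertonicity. All cells grew for 5 days, at 300 mosmol/kg or, after 100 mM NaCl and 100 mM urea were added, at 600 mosmol/kg. Each knockout group stands for 2 clones only. The deposited table gives 1 FPKM value, that is, fragments scaled to gene length and to sequencing depth, per gene and group. Where 4 values of a gene stand in a row, their order is Scr_300, Scr_600, Nfat5-KO_300 and Nfat5-KO_600. There is no replicate check of any difference below, no SD and no p-value, and the number of reads behind each value is unknown.

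The targeted gene kept RNA in the knockout groups: Nfat5 had 5.61 FPKM in Scr_300, 3.47 in Nfat5-KO_300, 7.93 in Scr_600 and 6.88 in Nfat5-KO_600, and a value over the whole gene cannot show whether the edited part was present. Its target Akr1b3, the aldose reductase that makes sorbitol, had 175 FPKM in Scr_600 and 39.2 in Nfat5-KO_600. All 4 epithelial markers examined were expressed, against 4 of 10 principal cell markers. Those expressed were Gata3, Scnn1a and Hsd11b2, with at most 30.04, 7.03 and 6.18 FPKM, all in Nfat5-KO_600, and Aqp3, with at most 2.93 FPKM, in Nfat5-KO_300. The others stayed under 0.5 FPKM in every group, among them Aqp2, Avpr2 and Elf5 with at most 0.245, 0.0193 and 0.0141 FPKM. No marker of intercalated cells (4), fibroblasts (3), endothelium (2), leukocytes (1) or thick ascending limb (2) reached 0.5 FPKM, and 1 of 3 proximal tubule markers did (Lrp2, 1.07 FPKM in Nfat5-KO_600). Over all genes compared, the median log2 ratio lay between -0.041 and -0.0015 in the 4 comparisons.

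Most opposite-strand genes were silent or nearly so. Of the 292, 80 were listed at 0 in all 4 groups, 116 were above 0 but stayed under 0.1 FPKM in every group, and 53 reached 0.1 but not 0.5 FPKM. The remaining 43 genes (14.7%) reached 0.5 FPKM or more somewhere. Of the 250 different partners of the 292 genes, 140 (56%) reached that level, and 13414 of all 52015 genes (25.8%) did. The level of 1 FPKM was reached by 28 of the opposite-strand genes, 5 FPKM by 9 and 10 FPKM by 5. At the limit of 0.5 FPKM, the highest values of Fcnaos and Mypopos were 0.509 and 0.510 FPKM, and those of Rspo4os and Tnk2os, just under it, were 0.499 and 0.483 FPKM.

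**Figure D1:**
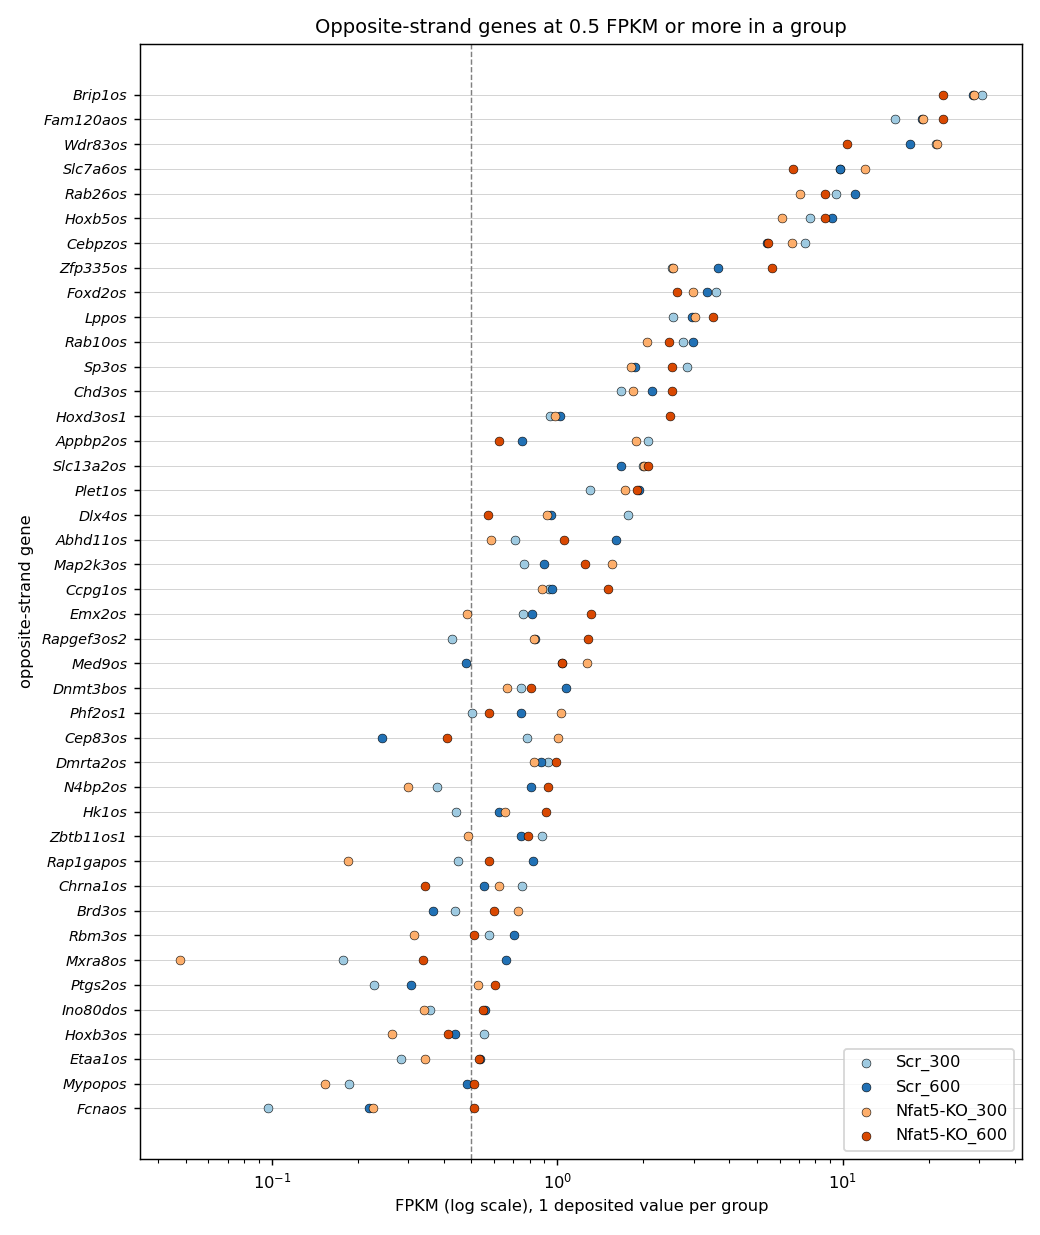
FPKM (log axis) of 42 of the 43 opposite-strand genes that reached 0.5 FPKM, 1 point per group and gene, with the dashed line at 0.5 FPKM. Only 5 genes passed 10 FPKM, and the points of 1 gene mostly lie close together beside the range from 0.509 to 30.8 FPKM between the highest values of different genes.

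Brip1os, a noncoding gene at chr11:86201370-86304443 on the plus strand, was the most abundant. It had 30.8 FPKM in Scr_300, 28.5 in Scr_600, 28.7 in Nfat5-KO_300 and 22.3 in Nfat5-KO_600. Its values were lowest in Nfat5-KO_600, and in every group they exceeded those of Brip1, a DNA helicase that works with BRCA1 in repair, which had 6.66, 6.70, 6.16 and 6.89 FPKM in the same order. The annotated starts of both genes are 177 bases apart, and no exon base of Brip1os falls in Brip1, although 20.2% of its exon bases fall in exons of other genes, chiefly Med13. Fam120aos, whose start lies 270 bases from that of Fam120a, had 15.2 FPKM in Scr_300, 18.9 in Scr_600, 19.1 in Nfat5-KO_300 and 22.4 in Nfat5-KO_600. Its partner, an RNA-binding scaffold protein, was far higher at 92.0, 87.7, 109 and 90.7 FPKM in the same order, so that Fam120aos was the lower of the pair.

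Rab26os had 9.48 FPKM in Scr_300, 11.0 in Scr_600, 7.06 in Nfat5-KO_300 and 8.68 in Nfat5-KO_600, whereas Rab26, a small GTPase of secretory vesicles, stayed between 0.0213 and 0.0341 FPKM. All 497 exon bases of Rab26os (chr17:24528248-24528744) lie inside an intron of Rab26, and they contain the annotated small nucleolar RNA gene Snord60, which takes up 15.7% of them. Snord60 is listed at 0 in all groups, and which part of the Rab26os exon the reads came from cannot be told from a value per gene.

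Members that exceeded their partner in all 4 groups numbered 11 of the 43. Beside Brip1os and Rab26os they include Wdr83os, Hoxb5os, Foxd2os, Slc13a2os, Hoxd3os1, Ccpg1os, Chrna1os and Fcnaos. Foxd2os had 3.60 FPKM in Scr_300, 3.36 in Scr_600, 2.98 in Nfat5-KO_300 and 2.62 in Nfat5-KO_600, above Foxd2, a forkhead transcription factor, at 0.508, 0.547, 0.444 and 0.613 FPKM in the same order. Slc13a2os had 1.99 FPKM in Scr_300, 1.67 in Scr_600, 2.01 in Nfat5-KO_300 and 2.08 in Nfat5-KO_600, with Slc13a2, the sodium-coupled citrate transporter of renal epithelium, at 0.737, 0.776, 0.789 and 1.32 FPKM in the same order. Most exon bases of Slc13a2os (72.6%) fall in introns of Slc13a2 and 17.4% in its exons. The methods name no step that keeps the strand of the RNA, so reads from unspliced Slc13a2 RNA and from Slc13a2os cannot be told apart, and their part in the level was not tested. At the other end, 15 of the 43 had a mean below 10% of the partner's mean, and the median ratio of member to partner was 0.178. The median of the highest group values was 1.50 FPKM for the 43 members and 8.41 FPKM for their partners.

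In 4 pairs the partner stayed below 0.5 FPKM in every group while the opposite-strand gene did not. These are Rab26os, Ccpg1os, Chrna1os and Fcnaos. Chrna1os had 0.751 FPKM in Scr_300, 0.555 in Scr_600, 0.624 in Nfat5-KO_300 and 0.343 in Nfat5-KO_600, and Chrna1, the alpha subunit of the muscle acetylcholine receptor, stayed under 0.01 FPKM. Ccpg1os had 0.939 FPKM in Scr_300, 0.960 in Scr_600, 0.883 in Nfat5-KO_300 and 1.50 in Nfat5-KO_600, and Ccpg1, a receptor for the turnover of endoplasmic reticulum, was listed at no more than 0.0124 FPKM. However, 55.8% of the exon bases of Ccpg1 also belong to exons of another annotated gene, chiefly Gm44503, and how reads there were assigned is not stated. Fcnaos reached 0.509 FPKM in Nfat5-KO_600 and 0.0968 to 0.226 FPKM elsewhere, against at most 0.0590 FPKM for Fcna, a ficolin of innate immunity.

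**Figure D2:**
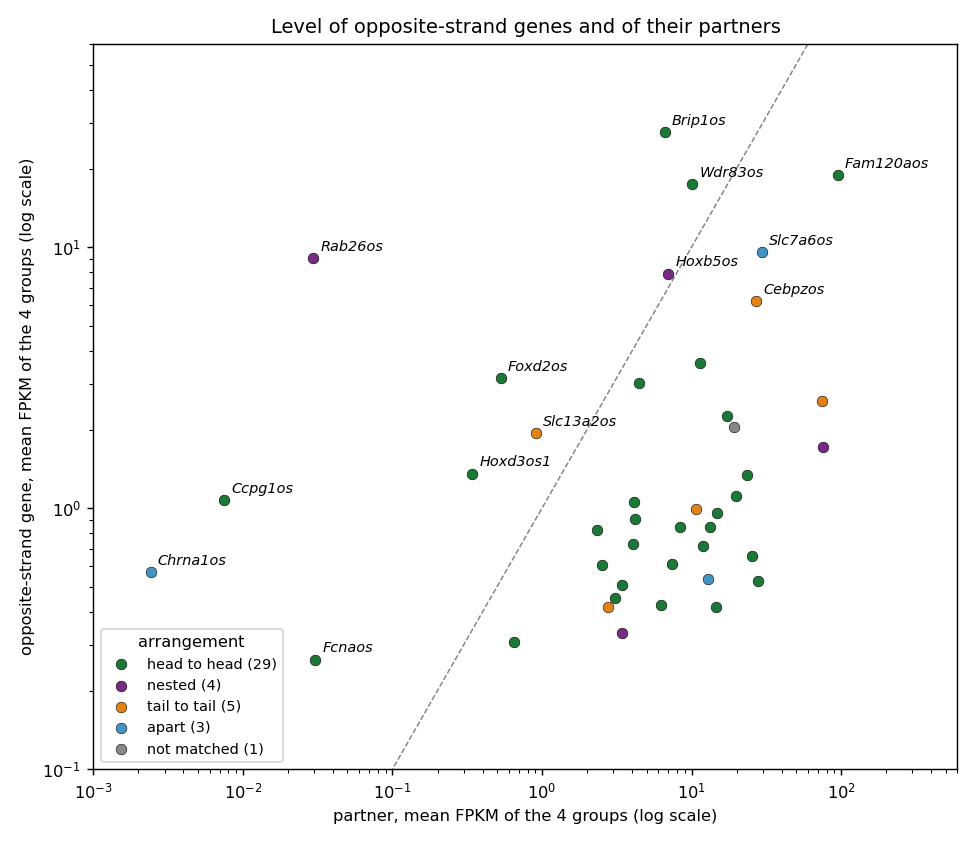
Mean FPKM over the 4 groups of 42 of the 43 opposite-strand genes (vertical log axis) against that of their partners (horizontal log axis), coloured by arrangement, with the dashed line at equal levels. The 10 members above the line and those over 5 FPKM are named, and the points of Rab26os, Ccpg1os and Chrna1os lie far to the left, where the partner is close to 0.

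Genes that encode proteins were often detected: 6 of the 9 annotated as protein-coding reached 0.5 FPKM, compared with 28 of 252 annotated as antisense, 3 of 10 as lincRNA and 3 of 12 as processed transcript. They include Wdr83os, Slc7a6os, Cebpzos, Ccpg1os and Brd3os. Wdr83os, a small protein of the endoplasmic reticulum that helps to insert membrane proteins, had 21.1 FPKM in Scr_300, 17.1 in Scr_600, 21.3 in Nfat5-KO_300 and 10.3 in Nfat5-KO_600, and Wdr83, a scaffold protein, had 11.1, 10.5, 10.6 and 8.22 FPKM in the same order. Since 52.3% of the exon bases of Wdr83os are also exon bases of Wdr83, neither value stands free of the other. Cebpzos was at 7.36 FPKM in Scr_300, 5.41 in Scr_600, 6.62 in Nfat5-KO_300 and 5.47 in Nfat5-KO_600, below Cebpz, a CCAAT-binding factor, at 26.2, 23.2, 34.0 and 24.1 FPKM in the same order.

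Several members belong to homeobox genes that pattern the body and the urogenital tract. Hoxb5os had 7.69 FPKM in Scr_300, 9.16 in Scr_600, 6.13 in Nfat5-KO_300 and 8.67 in Nfat5-KO_600, and Hoxb5 had 6.62, 7.82, 5.11 and 8.41 FPKM in the same order. Both were lowest in Nfat5-KO_300, and Hoxb5os lay just above its partner in each group, with 14.4% of its exon bases in exons of Hoxb5. Hoxb3os reached at most 0.554 FPKM, in Scr_300, while Hoxb3 had 2.58 to 2.99 FPKM, and 53.6% of the exon bases of Hoxb3os are exon bases of Hoxb3. Emx2os, Hoxd3os1 and Dlx4os are taken up with the comparisons below.

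Detection differed with the arrangement of the pair. Here a pair is head to head when annotated starts of both genes lie within 1 kb of each other, which holds for 122 pairs. Whether the 2 starts point apart or towards each other was not part of this rule. Of these, 29 members (23.8%) reached 0.5 FPKM. Of 107 members nested in the partner or enclosing it, 4 did (3.74%), of 27 arranged tail to tail 5 did (18.5%), of 18 lying apart from the partner 4 did (22.2%), and of 14 with overlapping heads none did. Among members with most exon bases in introns of the partner, 6 of 127 (4.72%) reached the level, against 31 of 127 (24.4%) with most exon bases outside it and 2 of 21 with most in its exons. These shares are descriptions of 1 annotation and of 1 cell line. Members of 1 partner are not independent of each other, and all 3 opposite-strand genes of Arhgap27 or of Lrp8, for example, stayed below 0.5 FPKM.

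**Figure D3:**
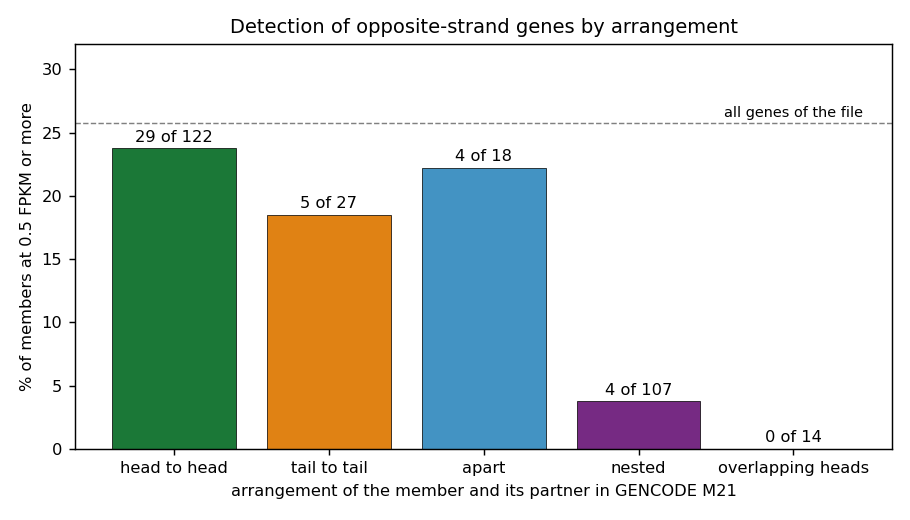
Share of opposite-strand genes that reached 0.5 FPKM (bars, in %) for each arrangement with the partner in GENCODE M21, with the numbers above the bars and the share among all genes of the table, 25.8%, as the dashed line. Head-to-head members reached 23.8% and nested members 3.74%.

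The 250 bases before the start and the first 50 bases of the gene were read from RefSeq promoters on GRCm38.p6 for 177 of the members (214 windows). Windows of the members with at least 0.5 FPKM held a median of 14.5 CG dinucleotides (38 windows), and those of members under 0.5 FPKM held 5 (176 windows). The medians were 12 for head-to-head members and 3 for nested ones, 18 for all partners, 22 for partners of the members with at least 0.5 FPKM, 21 for all genes of the table at that level and 7 for all 32851 promoters. TGGAAA, the core of the tonicity-responsive element bound by NFAT5, was searched on both strands and occurred in 15.8% of the windows of the members with at least 0.5 FPKM. Among windows of all genes of the table at that level the share was 16.3%. It occurred in 23.4% of the windows of all members and 21.4% of all promoters. The full element was found in 6.54% of the windows of the members and in 4.96% of all promoters. A match is only a run of letters in these windows.

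For hypertonicity and for Nfat5 deletion, 0.1 was added to each FPKM value before the log2 ratio was taken, so that changes of low genes come out too small. A gene entered a comparison when either of its 2 groups reached 0.5 FPKM, and at least 2-fold (a log2 ratio of 1 or more, or of -1 or less) is called a rise or a fall. Whether such a difference came from more RNA per cell or from more cells that make it cannot be told apart in bulk RNA.

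In scramble cells, hypertonicity moved 4 of 39 members at least 2-fold. Abhd11os and Mxra8os rose and Appbp2os and Cep83os fell, so that 2 of 39 were higher, beside 4.81% of all genes, and 2 of 39 were lower, beside 2.86% of all genes. The median of the 39 was 0.11, compared with 0.04 for 138 partners, of which 10 rose and 4 fell at least 2-fold. In Nfat5-KO cells, 9 of 41 members passed: 6 were higher, beside 6.25% of all genes, and 3 were lower, beside 4.11%. The median of the 41 was 0.24, against 0.10 for 137 partners, of which 7 rose and 2 fell. When 1 FPKM was added in place of 0.1, 0 members passed 2-fold in either genotype. Of the 9 in Nfat5-KO cells, Emx2os, Mypopos, N4bp2os and Rap1gapos entered only through Nfat5-KO_600 and Cep83os only through Nfat5-KO_300, the group where each is higher, and 4 had 0.5 FPKM in both groups. In scramble cells Mxra8os and Cep83os likewise entered through 1 group, and the counts are given as a description that supports nothing about the members.

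The 2 hypertonic comparisons share no group. Among 37 members compared in both, 30 (81.1%) had the same sign, 20 higher and 10 lower at 600 mosmol/kg, with a Pearson r of 0.68 between the log2 ratios. For 135 partners it was 98 (72.6%, r of 0.60) and for 12497 genes 9245 (74.0%, r of 0.64). Some members, such as N4bp2os, entered both comparisons only through the group at 600 mosmol/kg, where they were higher, which favours the same sign. These are correlations across genes, which are not replicates, and no p-value was calculated.

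Appbp2os and Cep83os fell in both genotypes. Appbp2os (chr11:85234775-85238304, plus strand) had 2.08 FPKM in Scr_300, 0.750 in Scr_600, 1.89 in Nfat5-KO_300 and 0.626 in Nfat5-KO_600. The log2 ratio was -1.36 in scramble and -1.45 in Nfat5-KO cells, so both hypertonic groups were below both isotonic groups. Appbp2, an adaptor of a ubiquitin ligase whose start lies 41 bases away, had 23.4, 26.0, 20.9 and 23.1 FPKM in the same order, with log2 ratios of 0.16 and 0.15. The pair differed by more than 1 on the log2 scale in each genotype, even though 34.5% of the exon bases of Appbp2os are shared with Appbp2. Cep83os (chr10:94671025-94688576, minus strand) had 0.782 FPKM in Scr_300, 0.243 in Scr_600, 1.01 in Nfat5-KO_300 and 0.412 in Nfat5-KO_600, a log2 ratio of -1.36 in scramble and -1.11 in Nfat5-KO cells. Cep83, a protein of the centriole needed to build cilia, had 8.62, 7.28, 7.95 and 5.68 FPKM in the same order, with log2 ratios of -0.24 and -0.48, and the genes share no exon base.

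Abhd11os, annotated as a transcribed pseudogene arranged tail to tail with Abhd11, had 0.712 FPKM in Scr_300, 1.61 in Scr_600, 0.584 in Nfat5-KO_300 and 1.05 in Nfat5-KO_600. It rose in scramble cells by 1.08, and in Nfat5-KO cells its log2 ratio was 0.75. Abhd11, a hydrolase of mitochondria, had 11.9, 13.1, 11.1 and 6.54 FPKM in the same order. Its log2 ratios were 0.14 and -0.75, so that the genes went in opposite directions in Nfat5-KO cells. Of the exon bases of Abhd11, 43.1% belong also to other genes, chiefly Gm43372.

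N4bp2os had 0.378 FPKM in Scr_300, 0.807 in Scr_600, 0.300 in Nfat5-KO_300 and 0.930 in Nfat5-KO_600. It rose in Nfat5-KO cells by 1.37, with 0.93 in scramble cells, and its hypertonic values were above its isotonic ones in both genotypes. The partner N4bp2, a protein that binds the ubiquitin ligase NEDD4, had 2.22, 2.42, 2.87 and 2.60 FPKM in the same order, and its log2 ratios were 0.12 in scramble and -0.14 in Nfat5-KO cells. Mypopos, of which 96.0% of the exon bases lie in introns of Mypop, had 0.186 FPKM in Scr_300, 0.483 in Scr_600, 0.153 in Nfat5-KO_300 and 0.510 in Nfat5-KO_600. It rose in Nfat5-KO cells by 1.27, and in scramble cells, where both groups were below 0.5 FPKM, the log2 ratio was 1.03. Mypop, a Myb-related repressor, had 2.01, 3.56, 2.87 and 5.28 FPKM in the same order and log2 ratios of 0.79 in scramble and 0.86 in Nfat5-KO cells.

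Emx2os rose at 600 mosmol/kg in Nfat5-KO cells. Its values were 0.758 FPKM in Scr_300, 0.816 in Scr_600, 0.482 in Nfat5-KO_300 and 1.32 in Nfat5-KO_600, and the log2 ratio was 1.28 in Nfat5-KO and 0.09 in scramble cells. Emx2, a homeobox factor required for the urogenital system, had 12.1, 12.8, 11.7 and 16.2 FPKM in the same order, with log2 ratios of 0.46 in Nfat5-KO and 0.07 in scramble cells. Zfp335os had 2.52 FPKM in Scr_300, 3.66 in Scr_600, 2.54 in Nfat5-KO_300 and 5.67 in Nfat5-KO_600. Its log2 ratio was 1.13 in Nfat5-KO cells, a rise, and 0.52 in scramble cells, and Zfp335, a zinc finger protein of the nucleus, had 8.41, 11.6, 10.5 and 15.2 FPKM in the same order, with log2 ratios of 0.53 in Nfat5-KO and 0.46 in scramble cells.

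Wdr83os was the abundant member that fell. With the values given above, the log2 ratio was -1.04 in Nfat5-KO and -0.30 in scramble cells, and that of Wdr83 was -0.36 in Nfat5-KO and -0.09 in scramble cells. Nfat5-KO_600 was the lowest of the 4 groups for both genes. As the exons overlap, these cannot be taken as separate measurements.

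**Figure D4:**
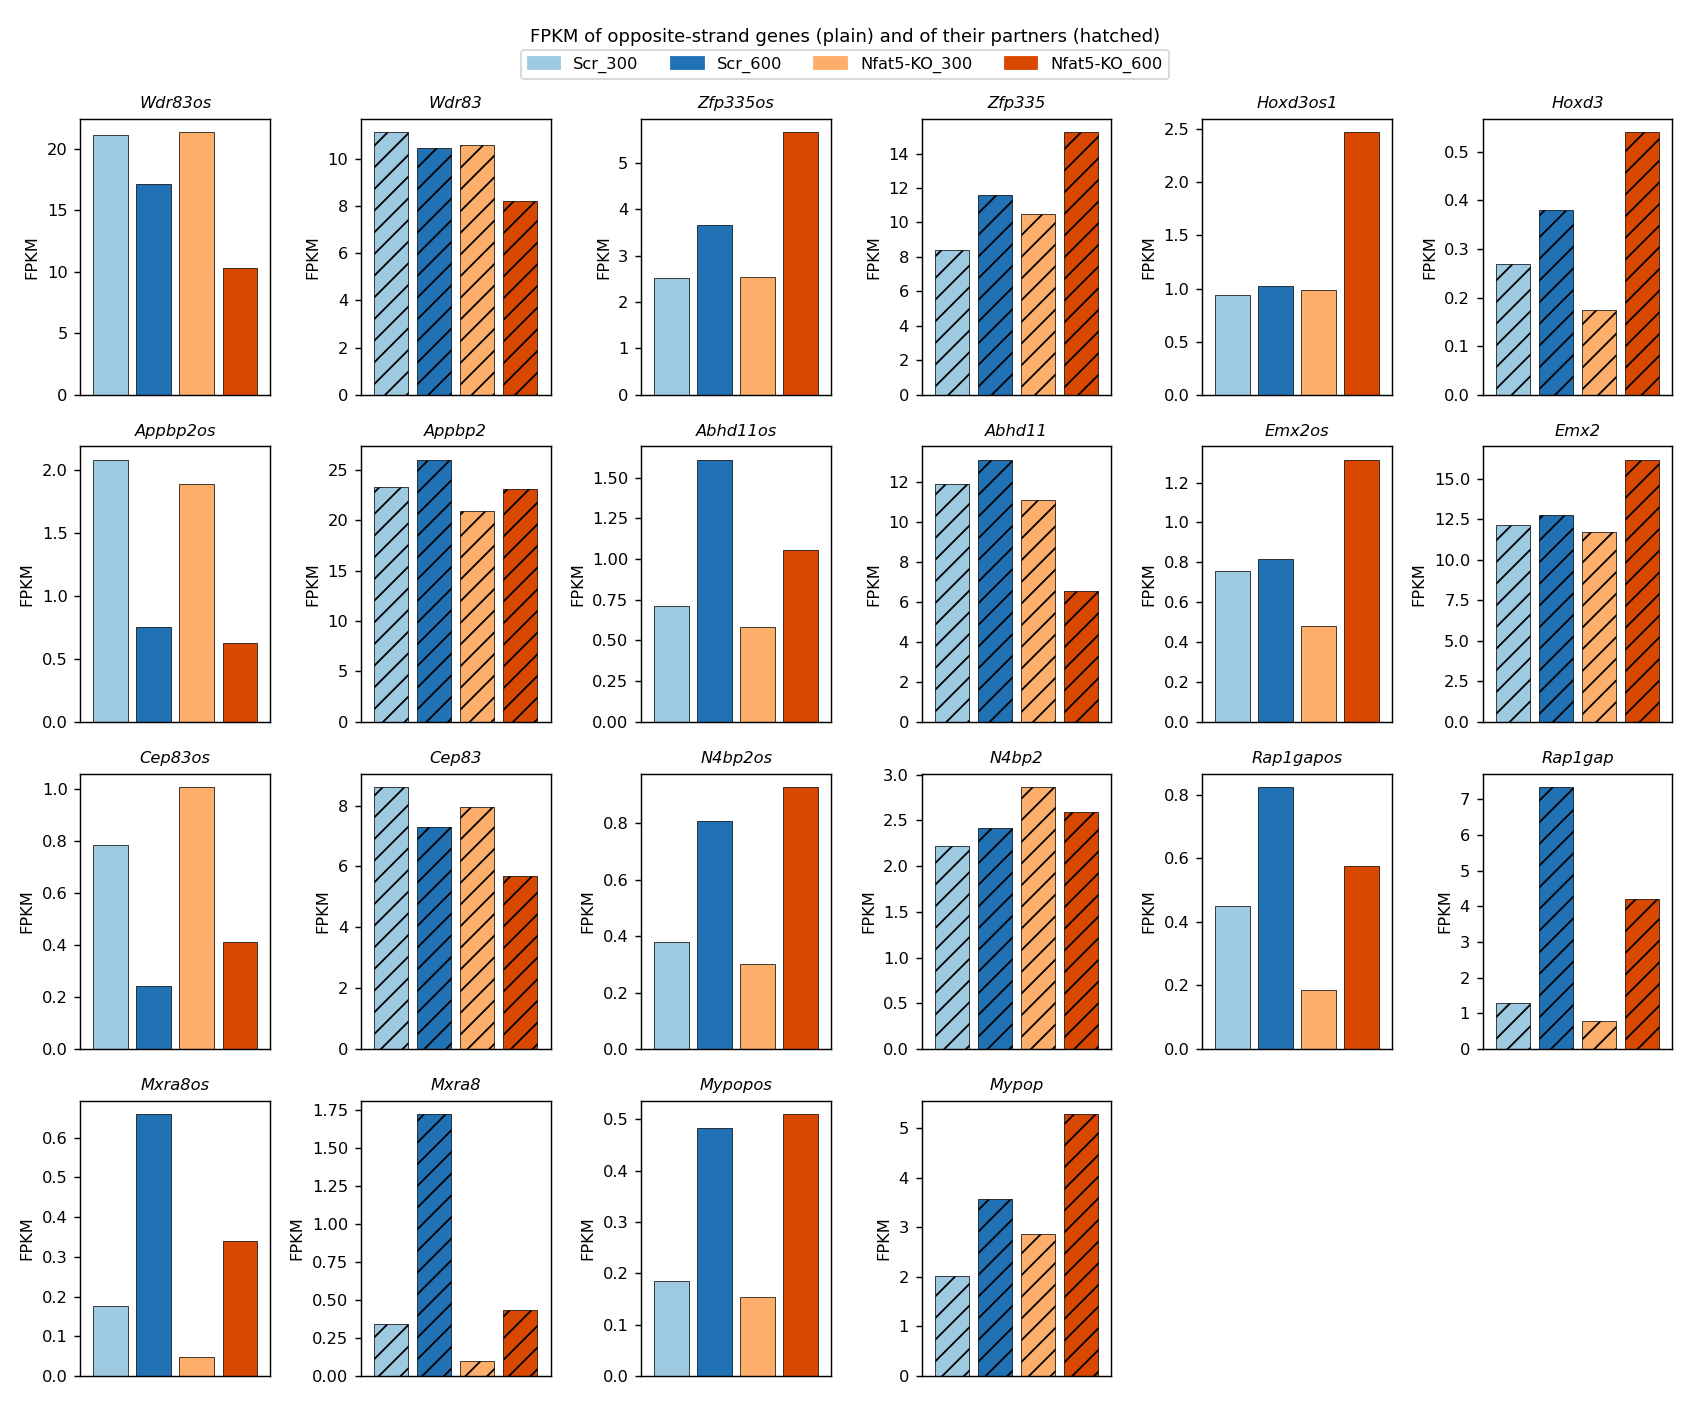
FPKM in the 4 groups for the 11 opposite-strand genes that differed at least 2-fold in a comparison (plain bars) and for their partners (hatched bars), each panel with its own axis from 0. Appbp2os and Cep83os are lower at 600 mosmol/kg in both genotypes, as is Cep83 by less, while Appbp2 is slightly higher, and Rap1gapos and Mxra8os are higher at 600 mosmol/kg together with their partners.

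Rap1gapos and Mxra8os moved with their partners under hypertonicity. Rap1gap, which switches off the small GTPase Rap1, had 1.30, 7.36, 0.790 and 4.22 FPKM in the same order, with log2 ratios of 2.42 in scramble and 2.28 in Nfat5-KO cells. Rap1gapos had 0.450 FPKM in Scr_300, 0.825 in Scr_600, 0.185 in Nfat5-KO_300 and 0.577 in Nfat5-KO_600. Its log2 ratios were 0.75 and 1.25, so that both genes were higher at 600 mosmol/kg, the partner by over 1 more in each genotype. All exon bases of Rap1gapos lie in introns of Rap1gap and none in its exons, so reads from unspliced Rap1gap RNA and from Rap1gapos cannot be told apart, and their part in this result was not tested. Mxra8os had 0.177 FPKM in Scr_300, 0.660 in Scr_600, 0.0478 in Nfat5-KO_300 and 0.340 in Nfat5-KO_600. It rose by 1.46 in scramble cells, and Mxra8, a cell adhesion protein, with 0.341, 1.72, 0.0956 and 0.437 FPKM in the same order, rose there by 2.05. In Nfat5-KO cells both genes were under 0.1 FPKM at 300 mosmol/kg, and Mxra8os did not enter that comparison. Exons of Mxra8 hold 30.7% of the exon bases of Mxra8os.

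Slc7a6os and Slc7a6 parted under hypertonicity. Slc7a6, an exchanger of cationic and neutral amino acids, had 20.3, 51.5, 20.5 and 25.9 FPKM in the same order and rose by 1.34 in scramble cells, with 0.34 in Nfat5-KO cells. Slc7a6os, which encodes a protein for the nuclear import of RNA polymerase II, had 9.74 FPKM in Scr_300, 9.81 in Scr_600, 11.95 in Nfat5-KO_300 and 6.67 in Nfat5-KO_600 and log2 ratios of 0.01 and -0.83. The annotated genes do not overlap. Dlx4os had 1.77 FPKM in Scr_300, 0.949 in Scr_600, 0.922 in Nfat5-KO_300 and 0.572 in Nfat5-KO_600, and its partner Dlx4, a homeobox factor, had 3.36, 4.72, 2.98 and 5.32 FPKM in the same order. The log2 ratios of the member were -0.84 in scramble and -0.60 in Nfat5-KO cells, neither of which is a fall by the 2-fold rule, and those of Dlx4 were 0.48 and 0.81. Rbm3os had 0.578 FPKM in Scr_300, 0.704 in Scr_600, 0.314 in Nfat5-KO_300 and 0.510 in Nfat5-KO_600. In Nfat5-KO cells its log2 ratio was 0.56 and that of Rbm3, the cold-inducible RNA-binding protein with 31.0, 23.5, 39.4 and 17.2 FPKM in the same order, was -1.19.

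Counted by pair, 5 of 35 pairs differed by at least 1 on the log2 scale under hypertonicity in scramble cells. They were Rap1gapos, Appbp2os, Slc7a6os, Dlx4os and Cep83os, all with the member below the partner. In Nfat5-KO cells 7 of 37 pairs did. The member was below the partner for Appbp2os, Dlx4os, Slc7a6os and Rap1gapos and above it for Rbm3os, Abhd11os and N4bp2os. Such differences were not counted in other annotated pairs on opposite strands, so neither their number nor their direction can be read as a trait of the members.

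Loss of Nfat5 at 300 mosmol/kg moved none of 36 members at least 2-fold on this scale, higher or lower, beside 1.73% of all genes higher and 2.44% lower. With 0.01 FPKM added in place of 0.1, 4 of the 36 passed. On the scale with 0.1, the log2 ratios ran from -0.87 to 0.94 with a median of -0.09, and those of 133 partners had a median of -0.03, with 3 rises and 1 fall. Ptgs2os lay at the upper end with 0.94, as did Map2k3os with 0.94. Map2k3os had 0.765 FPKM in Scr_300, 0.901 in Scr_600, 1.55 in Nfat5-KO_300 and 1.25 in Nfat5-KO_600, and Map2k3, a kinase upstream of p38, had 18.3, 19.3, 22.4 and 19.1 FPKM in the same order. Dlx4os with -0.87 and Hoxb3os with -0.85 had the lowest values. In 2 of 32 pairs member and partner differed by at least 1. These were Rbm3os, with -0.71 against 0.34, and Zbtb11os1, with -0.74 against 0.26 for the zinc finger gene Zbtb11. Zbtb11os1 had 0.882 FPKM in Scr_300, 0.745 in Scr_600, 0.487 in Nfat5-KO_300 and 0.792 in Nfat5-KO_600. Of the exon bases of Zbtb11os1, 36.2% are exon bases of Zbtb11.

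Under hypertonicity, 1 of 41 members was at least 2-fold higher in Nfat5-KO_600 than in Scr_600, beside 3.76% of all genes, and 0 were at least 2-fold lower, beside 3.68%. The member is Hoxd3os1 (chr2:74703248-74716130, minus strand), which had 0.941 FPKM in Scr_300, 1.03 in Scr_600, 0.982 in Nfat5-KO_300 and 2.47 in Nfat5-KO_600, a log2 ratio of 1.19 between genotypes at 600 mosmol/kg and 1.25 between osmolalities in Nfat5-KO cells. Only Nfat5-KO_600 stood apart, as the other 3 groups lay within 0.941 to 1.03 FPKM. Hoxd3, a homeobox factor, had 0.268, 0.380, 0.174 and 0.540 FPKM in the same order and was also highest in Nfat5-KO_600, with log2 ratios of 0.42 and 1.23. Of the exon bases of Hoxd3os1, 12.1% lie in exons and 66.5% in introns of Hoxd3, where reads of the 2 genes cannot be told apart without the strand, and the part of such reads was not tested. Without pairs that share exon bases, 0 members passed. Exons of other genes contain 62.8% of the exon bases of Hoxd3. Gata3, a transcription factor of the collecting duct, had 3.41 FPKM in Scr_300, 4.33 in Scr_600, 11.8 in Nfat5-KO_300 and 30.04 in Nfat5-KO_600. Gata3 was also highest in Nfat5-KO_600 and was higher in Nfat5-KO_300 than in Scr_300. Whether it bears on Hoxd3os1 was not tested.

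No other member passed between genotypes at 600 mosmol/kg, although 3 in all did with 0.01 FPKM added in place of 0.1. On the scale with 0.1 the log2 ratios had a median of 0.02 for all 41 and 0.01 for 140 partners, of which 4 rose and 6 fell. Med9os came next with 0.97, from 1.04 FPKM in Scr_300, 0.480 in Scr_600, 1.27 in Nfat5-KO_300 and 1.04 in Nfat5-KO_600. Med9, a subunit of the Mediator complex, had 16.8, 14.2, 17.8 and 10.5 FPKM in the same order and a log2 ratio of -0.43. Of 37 pairs, that of Med9os was the only 1 whose genes differed by at least 1. The 2 genotype comparisons share no group either, but both set clones N1 and N3 against the same scramble cells. In both, loss of Nfat5 cannot be told apart from other differences between these clones and the scramble cells. Of 34 members compared in both, 24 (70.6%) had the same sign, 12 higher and 12 lower, with a Pearson r of 0.39. The shares were 64.7% of 133 partners (r of 0.41) and 64.2% of 12353 genes (r of 0.48), so that the members had the highest share and the lowest r. Brd3os had log2 ratios of 0.62 and 0.58, but it entered both comparisons only through the knockout group, where it is higher. It is therefore given as a description only. It had 0.440 FPKM in Scr_300, 0.367 in Scr_600, 0.729 in Nfat5-KO_300 and 0.598 in Nfat5-KO_600, and Brd3, a reader of acetylated histones, had 10.5, 10.5, 14.3 and 15.9 FPKM in the same order, with 0.44 and 0.60.

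Across the 4 comparisons, 11 of the 43 opposite-strand genes and 22 of the 140 partners at 0.5 FPKM or more were at least 2-fold changed somewhere. The share over all genes was not taken for the 4 comparisons together, so these counts support nothing about the members. The 22 partners have 25 opposite-strand genes, of which 6 reached 0.5 FPKM. These 6 are Ptgs2os, Mxra8os, Slc7a6os, Rap1gapos, Rbm3os and Hoxd3os1, and the other opposite-strand genes of changed partners were too low to be compared.

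Member and partner had the same sign more often than not. In Nfat5-KO_300 against Scr_300 it was 23 of 32 pairs (71.9%), in Nfat5-KO_600 against Scr_600 28 of 37 (75.7%), in Scr_600 against Scr_300 24 of 35 (68.6%) and in Nfat5-KO_600 against Nfat5-KO_300 20 of 37 (54.1%). Over all other annotated gene pairs on opposite strands that overlap or have starts within 1 kb, the shares were 59.5% (2020 pairs), 58.5% (2198), 59.6% (2098) and 55.0% (2177) in the same order. The Pearson r of the log2 ratios across the member pairs was 0.48, 0.58, 0.45 and 0.36, and across the other pairs 0.23, 0.26, 0.23 and 0.15. Points of a pair share the libraries, and some pairs share exon bases, where the handling of reads is not stated. Of pairs with overlapping exons, 14 of 19, 20 of 23, 16 of 22 and 14 of 22 had the same sign in the same order. Of those without, it was 8 of 12, 7 of 13, 7 of 12 and 6 of 14. Among the other annotated pairs the shares were 58%, 57%, 60% and 57% with overlapping exons. Without overlap they were 61%, 60%, 59% and 53%. The numbers are small, and how far reads assigned across strands enter these shares was not tested.

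**Figure D5:**
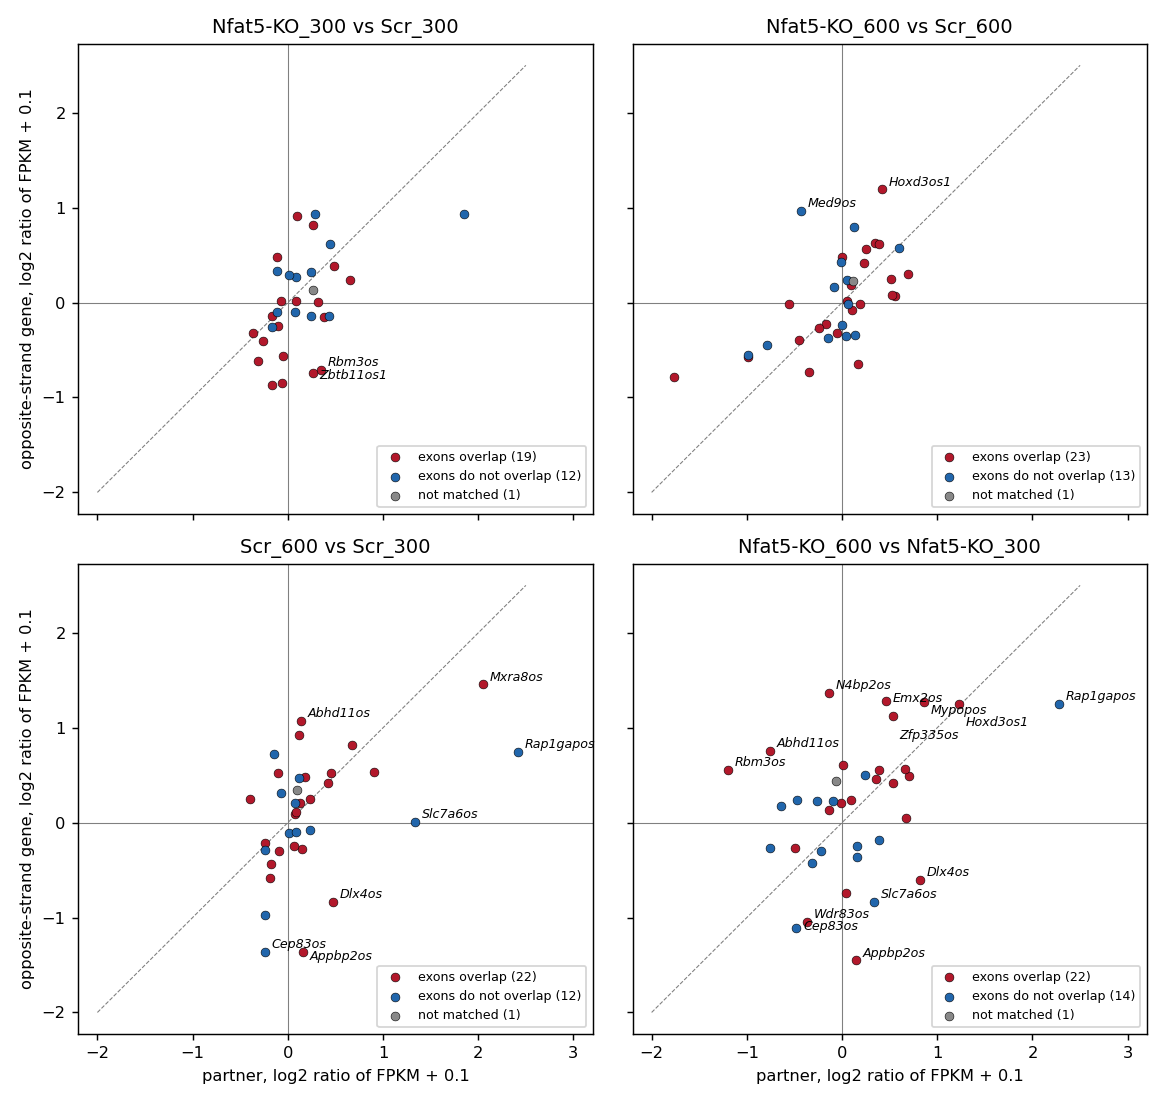
Log2 ratio (FPKM + 0.1) of the opposite-strand gene (vertical axis) against that of its partner (horizontal axis) in the 4 comparisons, 1 point per pair, coloured by whether annotated exons overlap; the dashed line marks equal ratios and named pairs passed 2-fold or differed by at least 1. Points cluster near 0, with Rap1gapos and Mxra8os to the upper right and Appbp2os near the bottom.

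The head-to-head pairs in which both genes had the largest log2 ratios of 1 sign were those of Mxra8os, Rap1gapos, Hoxd3os1, Ptgs2os, Rapgef3os2 and Zfp335os. Ptgs2os had 0.228 FPKM in Scr_300, 0.308 in Scr_600, 0.527 in Nfat5-KO_300 and 0.607 in Nfat5-KO_600, and Ptgs2, the cyclooxygenase that makes prostaglandins, had 6.41, 13.7, 23.4 and 15.0 FPKM in the same order. In Nfat5-KO_300 against Scr_300 the log2 ratios were 0.94 and 1.85, the second of which is a rise. At 600 mosmol/kg they were 0.79 and 0.12. Rapgef3os2 had 0.429 FPKM in Scr_300, 0.833 in Scr_600, 0.830 in Nfat5-KO_300 and 1.28 in Nfat5-KO_600, and Rapgef3, the cAMP-activated exchange factor Epac1, had 5.82, 9.36, 7.03 and 11.2 FPKM in the same order, both with their lowest value in Scr_300 and their highest in Nfat5-KO_600. For Rapgef3os2, 48.4% of the exon bases are in exons of other genes, chiefly Rapgef3.

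For each of these pairs but that of Rapgef3os2, 1 or both promoter windows are shown. The RefSeq start of each window shown lies within 1 kb of a start of the other gene. Such a distance does not show a shared promoter, and the windows of Rap1gapos and Rap1gap do not overlap. The windows of Ptgs2, Zfp335 and Rapgef3os2 (276 bases from a start of Rapgef3) also have a start within 1 kb and are not printed. That of Hoxd3os1, not printed either, starts 4203 bases from the nearest start of Hoxd3 and holds 5 CG dinucleotides. Each line holds 300 bases of RefSeq sequence on GRCm38.p6, from 250 bases before the start to the first 50 bases of the gene, 5′ to 3′ on the strand of the named gene, with CG dinucleotides in capitals. Ptgs2os (chr1:150099825-150100124, minus strand) starts 157 bases from Ptgs2, and its window holds 14 CG dinucleotides. Zfp335os (chr2:164911183-164911482, plus strand) holds 30, the most of the windows shown. Rap1gapos (chr4:137706557-137706856, minus strand) holds 4, whereas Rap1gap (chr4:137707217-137707516, plus strand), whose start is 861 bases away, holds 22. Mxra8 (chr4:155839430-155839729, plus strand) holds 8, and Hoxd3 (chr2:74711743-74712042, plus strand), with a start 61 bases from an annotated start of Hoxd3os1, holds 20. TGGAAA occurs in none of the 6 windows on either strand.
Ptgs2os: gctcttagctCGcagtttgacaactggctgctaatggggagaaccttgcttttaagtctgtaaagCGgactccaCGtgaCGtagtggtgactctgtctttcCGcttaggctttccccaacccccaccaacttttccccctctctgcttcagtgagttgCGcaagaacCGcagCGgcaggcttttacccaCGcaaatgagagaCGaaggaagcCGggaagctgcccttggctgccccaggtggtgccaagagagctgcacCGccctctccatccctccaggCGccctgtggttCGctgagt
Zfp335os: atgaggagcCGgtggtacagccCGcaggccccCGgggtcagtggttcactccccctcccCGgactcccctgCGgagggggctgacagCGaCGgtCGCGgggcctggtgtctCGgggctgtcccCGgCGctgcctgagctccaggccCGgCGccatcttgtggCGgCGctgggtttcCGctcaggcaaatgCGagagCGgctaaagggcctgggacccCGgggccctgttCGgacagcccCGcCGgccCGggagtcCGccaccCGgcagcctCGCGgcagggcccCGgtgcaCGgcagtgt
Rap1gapos: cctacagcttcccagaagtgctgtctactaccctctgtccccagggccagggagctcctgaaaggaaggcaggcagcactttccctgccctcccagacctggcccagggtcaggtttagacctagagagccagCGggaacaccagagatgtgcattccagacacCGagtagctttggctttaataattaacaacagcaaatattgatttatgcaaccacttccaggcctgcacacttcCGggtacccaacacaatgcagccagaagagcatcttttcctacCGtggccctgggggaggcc
Rap1gap: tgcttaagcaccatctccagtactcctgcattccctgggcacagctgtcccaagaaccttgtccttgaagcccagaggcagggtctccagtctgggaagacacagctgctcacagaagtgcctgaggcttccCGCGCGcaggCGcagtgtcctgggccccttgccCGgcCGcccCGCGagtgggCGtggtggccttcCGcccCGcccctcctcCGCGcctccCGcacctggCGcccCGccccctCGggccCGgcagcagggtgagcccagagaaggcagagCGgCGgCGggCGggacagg
Mxra8: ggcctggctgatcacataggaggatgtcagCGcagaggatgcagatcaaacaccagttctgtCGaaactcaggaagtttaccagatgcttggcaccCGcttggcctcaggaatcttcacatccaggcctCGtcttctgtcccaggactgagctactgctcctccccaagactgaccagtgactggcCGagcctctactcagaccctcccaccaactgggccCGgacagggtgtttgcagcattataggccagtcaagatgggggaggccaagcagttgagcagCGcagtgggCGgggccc
Hoxd3: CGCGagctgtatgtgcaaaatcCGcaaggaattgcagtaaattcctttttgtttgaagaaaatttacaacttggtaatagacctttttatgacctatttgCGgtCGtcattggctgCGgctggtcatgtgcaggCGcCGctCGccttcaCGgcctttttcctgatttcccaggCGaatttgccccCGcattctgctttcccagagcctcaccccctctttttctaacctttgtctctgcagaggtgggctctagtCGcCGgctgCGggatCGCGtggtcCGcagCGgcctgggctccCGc

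The other members at or above 0.5 FPKM did not pass 2-fold on the scale with 0.1 added in any comparison they entered. Lppos had 2.55 FPKM in Scr_300, 2.95 in Scr_600, 3.03 in Nfat5-KO_300 and 3.52 in Nfat5-KO_600, close to Lpp, a LIM protein of cell adhesions, at 3.38, 3.69, 5.38 and 5.33 FPKM in the same order. Sp3os had 2.84 FPKM in Scr_300, 1.86 in Scr_600, 1.81 in Nfat5-KO_300 and 2.53 in Nfat5-KO_600 and Chd3os 1.66 FPKM in Scr_300, 2.14 in Scr_600, 1.84 in Nfat5-KO_300 and 2.52 in Nfat5-KO_600. Rab10os ranged from 2.07 to 2.98 FPKM against 66.0 to 83.5 FPKM for Rab10, a GTPase of membrane traffic, and Plet1os from 1.30 to 1.93 FPKM against 54.1 to 102 FPKM for Plet1. Dnmt3bos, Dmrta2os, Phf2os1, Hk1os, Ino80dos and Etaa1os reached between 0.535 and 1.07 FPKM at most, each below its partner in all groups. Phf2os1 was 0.91 between genotypes at 300 mosmol/kg, from 0.503 FPKM in Scr_300, 0.744 in Scr_600, 1.03 in Nfat5-KO_300 and 0.576 in Nfat5-KO_600, with 0.09 for Phf2, a histone demethylase.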

How the data were processed

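RNA of 12 cultures of mpkCCD cells was sequenced by the authors from poly-A-selected paired-end libraries. The reads were mapped with HISAT2 to GRCm38 and counted per gene with HTSeq, and the FPKM values, as deposited by the authors, hold a single number for a gene in each group. How libraries of a group were combined, the annotation release, the strand setting and the handling of overlapping genes are not given in the sources used here. As the depth of the libraries is unknown, the precision of a value cannot be stated.

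Of 54839 rows, 11 had no gene name and 2425 no values; 311 rows repeated another row exactly and were dropped, as were 37 symbols whose rows disagreed. Groups follow the sample labels. The tests planned for values per library (limma) needed replicates that these columns lack, so no p-value was calculated. Log2 ratios of FPKM + 0.1 were compared in 4 contrasts, with a floor of 0.5 FPKM in a group and a call at 2-fold. A single gene got a ratio where both groups had 0.1 FPKM or more, otherwise values only. The steps were run on simulated data of 12373 genes for Nfat5-KO_300 against Scr_300. In these, 100 of 100 genes changed 3-fold and 100 of 100 changed 4-fold were recovered, with 0 other calls. The simulated SD of the log2 ratios was 0.1, below the 0.48 of all genes in that comparison, and the changes were larger than the call. That outcome was built in, so it checks the steps only and says nothing about false calls in the data.

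Positions, exons and gene types come from GENCODE M21, matched by symbol. Promoter windows come from RefSeq on GRCm38.p6. Named were the opposite-strand genes at 0.5 FPKM or more (the 30 highest in full), those at least 2-fold changed, pairs differing by at least 1 on the log2 scale and members at or above their partner. Members, lists and rules were chosen with earlier results of these data known. Hk1os, Hoxb3os, Ino80dos, Etaa1os, Brd3os, Ptgs2os and the genes under "Other observations" lie partly outside the rule and were chosen after their values were seen. Epb41l4aos and the values of 1 other member are not reported here. Alternatives were pseudocounts of 1 and 0.01 FPKM, no filter, floors of 0.1 and 1 FPKM, median-of-ratios scaling, pairs without exon overlap and 1 member per partner. The steps ran in pandas 2.3.3 and numpy 2.4.6 under Python 3.11.15, with figures from matplotlib 3.10.9.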

Additional observations from a re-analysis of the deposited data

How the results depend on the processing

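With 1 value per group, no result could be recomputed without a replicate. No paired analysis was possible because the deposited columns are whole groups and carry no replicate numbers. Comparisons are given in the order Nfat5-KO_300 against Scr_300, Nfat5-KO_600 against Scr_600, Scr_600 against Scr_300, and Nfat5-KO_600 against Nfat5-KO_300. The counts of members at least 2-fold changed (0, 1, 4 and 9) became 0, 0, 0 and 0 with a pseudocount of 1 FPKM, which shrinks ratios of low genes by construction. With a pseudocount of 0.01 FPKM they became 4, 3, 6 and 10. Without a filter they were 3, 9, 9 and 17 of 177, 196, 169 and 208 members, and with a filter of 1 FPKM 0, 1, 2 and 6. Without pairs that share exon bases the last 3 were 0, 1 and 2. Pairs that differed by at least 1 (2, 1, 5 and 7) became 1, 0, 2 and 4 with a pseudocount of 1 FPKM and 8, 17, 14 and 18 without a filter. With 0.01 FPKM they became 2, 2, 7 and 6. With a filter of 1 FPKM all but the second changed, to 0, 3 and 3, and without exon overlap the same comparisons gave 0, 3 and 2. Pairs of 1 sign were 96 of 171, 123 of 193, 106 of 163 and 125 of 201 without a filter. They were 15 of 19, 16 of 20, 14 of 18 and 13 of 22 with a filter of 1 FPKM, and 8 of 12, 7 of 13, 7 of 12 and 6 of 14 without exon overlap. A floor of 0.1 FPKM kept 96 members, 17 of them above the partner, a floor of 1 FPKM kept 28, and without exon overlap it was 17 of 128 members, 6 above the partner. Median-of-ratios scaling and 1 member per partner left each count within 1.5 times. For single genes, 56 values kept their side of 2-fold, 14 fell below it, all with a pseudocount of 1 FPKM, and 0 changed sign. A filter leaves the ratio of a single gene as it was, and another pseudocount cannot change its sign. These counts were therefore largely fixed in advance and do not show that the ratios are stable. The cause of these shifts was not tested beyond the number of genes each setting keeps.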

Other observations

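Some opposite-strand genes below 0.5 FPKM had partners that changed at least 2-fold, and they were chosen after their values were seen. Pmepa1os had 0.0230 FPKM in Scr_300, 0.186 in Scr_600, 0.0703 in Nfat5-KO_300 and 0.321 in Nfat5-KO_600. Pmepa1, an inhibitor of TGF-beta signalling with which it is arranged head to head, had 2.52, 10.6, 8.60 and 12.7 FPKM in the same order, and Scr_300 was the lowest group for both genes. In that order, Slc6a19os had 0.0272, 0.419, 0.00973 and 0.248 FPKM, and Slc6a19, a transporter of neutral amino acids, had 0.411, 2.72, 0.425 and 1.42 FPKM. Both genes were higher at 600 than at 300 mosmol/kg in each genotype, and 25.6% of the exon bases of Slc6a19os lie in introns of Slc6a19. Efhd1os was listed at 0 in all groups, whereas Efhd1, a calcium-binding protein, differed between genotypes at 600 mosmol/kg by 2.06 on the log2 scale, with Nfat5-KO_600 the higher.

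Dnm3os, the host of the miRNA genes Mir199a-2 and Mir214 in its exons, was listed at 0.00215 FPKM in Nfat5-KO_300 and at 0 in the other groups. Rspo4os, which lies wholly in an intron of Rspo4, had 0.118, 0.0532, 0.105 and 0.499 FPKM in the order used above, and Rspo4, a Wnt agonist, was at most 0.00634 FPKM. Uckl1os reached 0.335 FPKM in Nfat5-KO_600 against 0.131 in Scr_600, with Uckl1 at 1.70 and 2.23 FPKM. Tmem147os has 2 rows in the deposited table, of which one holds 0.507, 0.693, 0.562 and 0.734 FPKM and the other 0.0305, 0.0295, 0.0178 and 0.0155 FPKM.

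Beside the ending os, 9 genes whose symbol ends in as or ot and whose partner is also a gene of the table were counted, and 5 of them reached 0.5 FPKM.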
